A study of Homo sapiens with 2 samples.

Results

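DEAD-box and DEAH-box proteins make up large related groups of RNA helicases, enzymes that use ATP to unwind RNA duplexes or to strip proteins from RNA. They are named after the amino acids of a conserved ATP-binding motif, and their genes carry the symbols DDX and DHX. DEAD-box proteins act locally, opening short duplexes during ribosome assembly, splicing, mRNA export and translation. DEAH-box proteins move along RNA, and several of them drive the rearrangements of the spliceosome. Both families serve processes that every dividing cell runs, and a few members are restricted to the germ line or induced by interferon.

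The members were the protein-coding genes of the RefSeq table (GRCh38.p14) whose symbol is DDX or DHX followed by a digit: 54 of 20037 genes on chromosomes 1 to 22, X and Y, of which 38 are DDX and 16 DHX. They were set against 2697 ChIP-seq summits from SW620, an established human colorectal cancer line grown from a lymph node metastasis. The immunoprecipitation targeted WSTF, the product of BAZ1B, a subunit of ISWI chromatin remodelling complexes. The series has 2 samples, both labelled as SW620 and colon with no treatment, time or allele given. The title of 1 ends in IP, and the other was assigned to no group. The series title names a knockdown of WSTF and the design text an overexpression, so the WSTF level behind the list is not settled. A single list was analysed, with no replicate lists and an unknown depth, so no comparison below has replicate error. Symbols alone set the members, since no protein sequences were used, and a summit list gives no expression by which to check the labelled cell type. The families were picked because DDX genes had carried summits often in this same list. Their counts are therefore descriptions and were not tested.

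A summit is the single base where the authors' peak is highest. Its score, the authors' own, was taken to be −log10 of the q-value from peak calling. A gene was counted as having a summit when one lay in the gene or within 1 kb of its outer limits. The 14 members with a summit each had 1, and all 14 summits lay within 500 bp of an outer end of the gene, with none deeper in a gene body. Of the 13 whose strand is given by the RefSeq promoter table, all lay at the 5′ end.

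The sequences below hold or lie next to the summits of some members, and come from the RefSeq promoter table (GRCh38.p14), 5′ to 3′. For DDX10, DDX17 and DHX40 the summit fell in the 250 bases before the gene's start with no other gene end within 1 kb of the summit. Capitals mark matches, on either strand, to fixed motif letters: CRE (TGACGTCA) and its short form (TGACG, which lies inside it on both strands), the CCAAT box (CCAAT), the GC box (GGGCGG), the E-box (CACGTG) and the NRF1 motif. DDX10 is on the plus strand at chr11:108664819-108665068, with the summit at base 58. DDX17 is on the minus strand at chr22:38506312-38506561, with the summit at base 185. DHX40 is on the plus strand at chr17:59565360-59565609, with the summit at base 60.
DDX10: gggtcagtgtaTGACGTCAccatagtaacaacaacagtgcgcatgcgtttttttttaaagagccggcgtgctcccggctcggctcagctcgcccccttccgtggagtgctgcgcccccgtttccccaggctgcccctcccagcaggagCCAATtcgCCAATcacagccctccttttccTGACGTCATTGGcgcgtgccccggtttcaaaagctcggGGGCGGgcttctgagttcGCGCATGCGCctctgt
DDX17: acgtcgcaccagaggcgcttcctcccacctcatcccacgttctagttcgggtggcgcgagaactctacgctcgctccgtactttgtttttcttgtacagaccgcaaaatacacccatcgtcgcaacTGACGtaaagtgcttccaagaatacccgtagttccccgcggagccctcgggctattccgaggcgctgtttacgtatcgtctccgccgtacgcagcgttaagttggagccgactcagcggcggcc
DHX40: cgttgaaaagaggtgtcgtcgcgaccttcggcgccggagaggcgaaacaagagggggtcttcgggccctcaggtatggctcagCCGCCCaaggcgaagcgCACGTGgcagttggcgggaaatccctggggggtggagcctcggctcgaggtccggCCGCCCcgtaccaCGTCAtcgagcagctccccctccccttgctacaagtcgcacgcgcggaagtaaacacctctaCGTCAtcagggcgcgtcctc

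In DDX10, CRE matches stood at bases 12 to 19 and 179 to 186, on either side of the summit, and the NRF1 match at bases 235 to 244. It also held CCAAT box matches at bases 149 to 153, 157 to 161 and 186 to 190 and a GC box match at bases 217 to 222. DDX17 held a single match, the short CRE form at bases 127 to 131. DHX40 had an E-box match at bases 101 to 106 and GC box matches at bases 84 to 89 and 156 to 161. It also held the short CRE form at bases 169 to 173 and 231 to 235.

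The next 3 sequences are the whole stretch between a DDX gene and the coding gene that starts on its other side, read in the minus-strand direction. They are shown because a summit here lies at both genes. The first base of a stretch is the one next to DUS2, NOC4L or DDX42. The order of the names in a label therefore does not give the direction. The stretch between DDX28 and DUS2 is chr16:68023233-68023283 (51 bases), that between DDX51 and NOC4L is chr12:132144320-132144456 (137 bases), and that between DDX42 and CCDC47 is chr17:63773598-63773799 (202 bases).
DDX28 to DUS2: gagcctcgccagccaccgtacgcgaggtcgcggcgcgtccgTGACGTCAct
DDX51 to NOC4L: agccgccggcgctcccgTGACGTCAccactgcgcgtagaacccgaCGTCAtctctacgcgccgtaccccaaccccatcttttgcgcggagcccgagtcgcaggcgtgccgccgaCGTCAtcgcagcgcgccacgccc
DDX42 to CCDC47: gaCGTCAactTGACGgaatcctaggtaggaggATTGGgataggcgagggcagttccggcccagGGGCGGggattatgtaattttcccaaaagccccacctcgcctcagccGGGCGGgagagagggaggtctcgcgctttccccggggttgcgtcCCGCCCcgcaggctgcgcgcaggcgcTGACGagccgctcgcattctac

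Both the DDX28 and the DDX51 stretch held a full CRE match, at bases 42 to 49 and 18 to 25. The DDX51 stretch also held the short form at bases 46 to 50 and 115 to 119. The DDX42 stretch held the short form at bases 3 to 7, 11 to 15 and 181 to 185. It also held GC box matches at bases 64 to 69, 111 to 116 and 155 to 160 and a CCAAT box match at bases 33 to 37. No summit fell inside any of the 3 stretches: each lay just past an end of the stretch, inside DDX28, NOC4L and CCDC47.

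DDX genes had a summit at 11 of 38 members (28.9%, exact 95% interval 15.4 to 45.9) and DHX genes at 3 of 16 (18.8%, 4.05 to 45.6). Over all protein-coding genes the share was 13.8%. The intervals of both families overlap widely, and that of DHX includes the share of all genes. That of DDX is no test against this share, because DDX genes were picked for their frequent summits in this same list. The 11 DDX genes were DDX5, DDX10, DDX17, DDX19B, DDX23, DDX28, DDX42, DDX50, DDX51, DDX52 and DDX59. The DHX genes were DHX15, DHX30 and DHX40. The intervals cover counting error only, and neighbouring genes can share a summit.

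**Figure D1:**
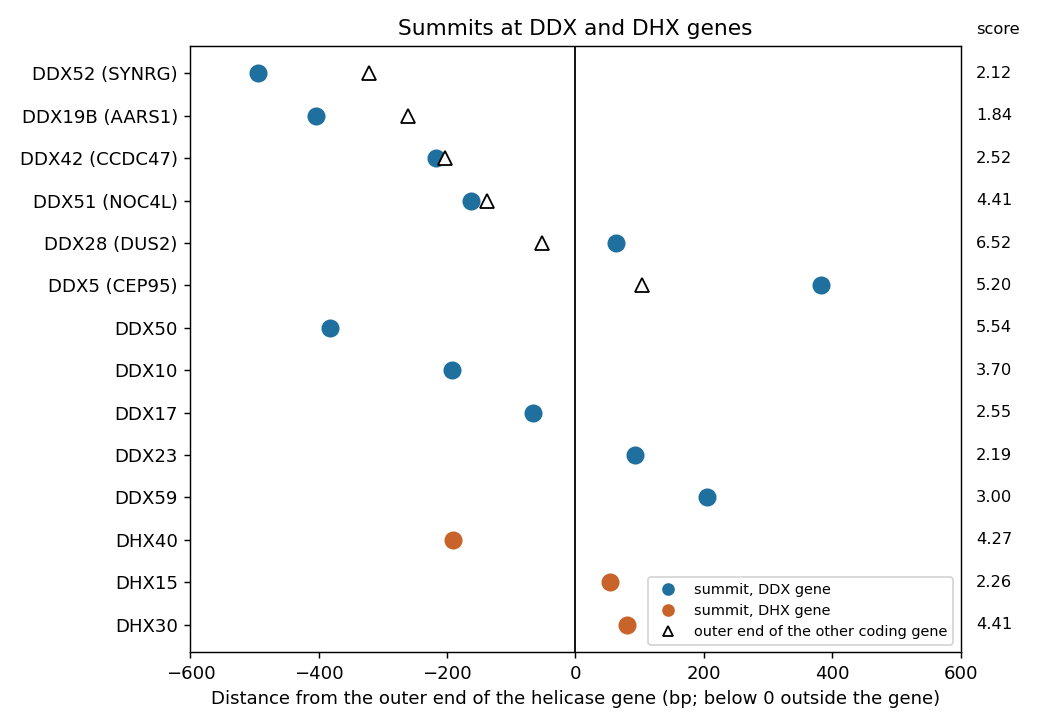
Position of the summit at each of the 14 members, as the distance in bp from the nearer outer end of the helicase gene (below 0 outside the gene), with the outer end of the other coding gene drawn as a triangle where such a gene (in brackets) lies at the summit, and the score at the right. The summits of DDX52, DDX19B, DDX42 and DDX51 lie beyond the triangle, inside the other gene, while no DHX summit has a triangle.

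The members are described below by the role of the protein, from a list of roles drawn up for the purpose. The groups are too small to be told apart, and each count is to be read beside the 13.8% of all protein-coding genes. Among the nucleolar and ribosome assembly helicases, 4 of 16 genes had a summit: DDX10, DDX50, DDX51 and DDX52. DDX50, a nucleolar paralogue of DDX21, had its summit on chromosome 10 at 68900932, 383 bp before its start, with a score of 5.54. DDX10, which acts in small ribosomal subunit assembly, had one on chromosome 11 at 108664876, 193 bp before its start, with a score of 3.70. No other coding gene ended within 1 kb of either summit, so both can be read as summits at the helicase gene itself.

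DDX51, whose protein acts in large-subunit rRNA processing, had a summit on chromosome 12 at 132144482 with a score of 4.41. It lay 163 bp before the start of DDX51 and 25 bp inside NOC4L, itself a ribosome assembly gene transcribed in the opposite direction. The DDX52 summit on chromosome 17 at 37609244 (score 2.12) lay 495 bp outside DDX52 and 174 bp past the start of SYNRG, which encodes a trafficking protein. DDX52 had no entry in the promoter table, so the end of DDX52 that faces this summit was not assigned.

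The other 12 genes of this group had none within 1 kb: DDX18, DDX21, DDX24, DDX27, DDX31, DDX47, DDX49, DDX54, DDX55, DDX56, DHX33 and DHX37. DDX21 and DDX50 are neighbours on chromosome 10. The summit nearest to DDX21, at 68988959 (score 3.83), lay 3891 bp past the outer end of DDX21 and 156 bp past the start of KIFBP.

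The 2 genes for mitochondrial ribosome assembly helicases both had a summit. DDX28 had the highest score of all members, 6.52, on chromosome 16 at 68023169, 63 bp inside the gene from its start. The same summit lay 115 bp before the start of DUS2, which encodes a tRNA dihydrouridine synthase and runs the other way. DHX30 had a summit on chromosome 3 at 47803219, 81 bp after its start, with a score of 4.41 and no other coding gene end within 1 kb.

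Of the 10 spliceosome genes, 3 had a summit. DDX23, whose protein belongs to the U5 snRNP, had one on chromosome 12 at 48852070, 93 bp after its start (score 2.19). That summit also lay inside LOC105369755, a lncRNA gene. DHX15, whose protein takes apart the spliceosome after splicing, had one on chromosome 4 at 24584500, 54 bp after its start (score 2.26). DDX42, whose protein binds the SF3B complex of the U2 snRNP, had a summit on chromosome 17 at 63773583 (score 2.52), 217 bp outside the gene and 587 bp before its annotated start. It was nearer to CCDC47, which encodes an endoplasmic reticulum protein, lying 14 bp inside that gene. The other 7 were DDX39B, DDX41, DDX46, DHX8, DHX16, DHX35 and DHX38. DHX8, DHX16 and DHX38, which with DHX15 are the DEAH-box ATPases of successive splicing steps, were thus without a summit.

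DDX5 and DDX17, which encode the closely related p68 and p72 proteins that act as transcriptional co-regulators and in RNA processing, each had a summit. That of DDX5 on chromosome 17 at 64506484 scored 5.20 and that of DDX17 on chromosome 22 at 38506377 scored 2.55. The DDX17 summit lay 66 bp before the start with no other coding gene end within 1 kb. The DDX5 summit lay 154 bp after the nearest of the gene's annotated starts and 382 bp inside its outer end. The outer end of CEP95, a centrosomal protein gene, was 278 bp away, but the nearest annotated CEP95 start was 493 bp away. The remaining 3 genes of this group, DDX1, DDX20 and DHX9, had none.

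Of the 9 genes for mRNA export, translation and decay, DDX19B alone had a summit, on chromosome 16 at 70289362. Its score of 1.84 was the lowest among members. It lay 405 bp outside DDX19B but 5415 bp before the nearest annotated start of that gene, and 144 bp after the start of AARS1, the cytosolic alanyl-tRNA synthetase gene. The paralogue DDX19A, also an mRNA export factor gene, had its nearest summit 7946 bp away. DDX3X, DDX3Y, DDX6, DDX39A, DHX29, DHX34 and DHX36 had none within 1 kb. The list has no summit on chromosome Y, where DDX3Y lies.

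Of the remaining genes, DDX59, which is linked to ciliary signalling, had a summit on chromosome 1 at 200669702 (score 3.00). It lay 34 bp after the nearest annotated start and 195 bp inside the antisense lncRNA gene DDX59-AS1. DHX40 had one on chromosome 17 at 59565419, 191 bp before its start (score 4.27). DHX32 and DHX57 had none. None of the 4 germ-line or cancer-testis genes (DDX4, DDX25, DDX43, DDX53), the 3 antiviral genes (DDX60, DDX60L, DHX58) or the DNA helicase gene DDX11 had a summit within 1 kb. At the 13.8% of all coding genes, 1.10 of these 8 genes would carry one. DDX11 has near-identical copies elsewhere in the genome, so its reads could have been shared with them, which was not tested.

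**Figure D2:**
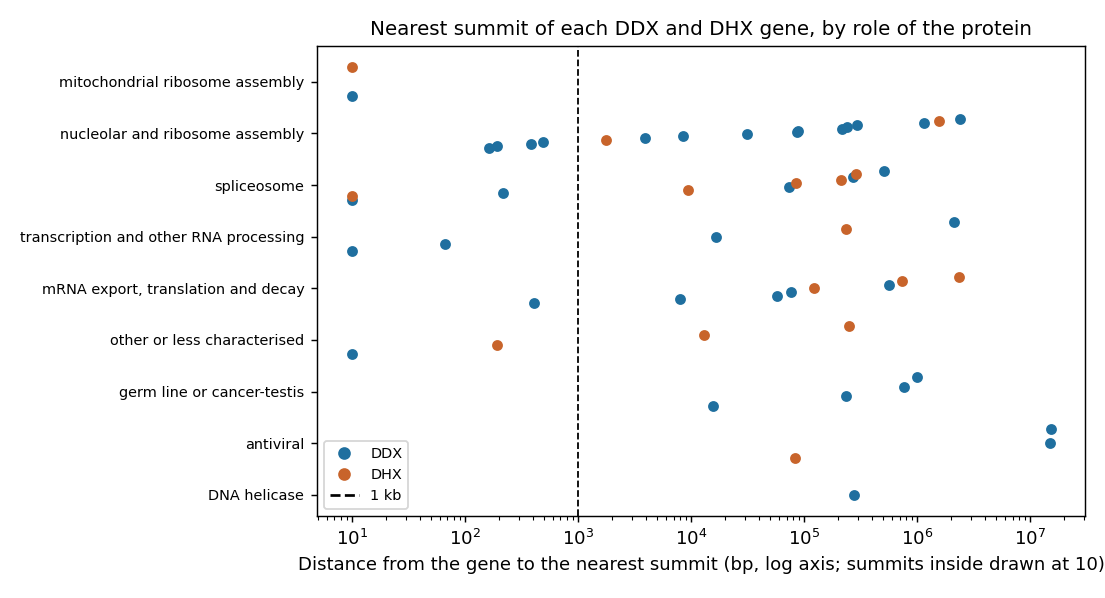
Distance from each member to its nearest summit (bp, log axis), grouped by the role of the protein, with DDX and DHX genes as coloured points and the 1 kb rule as a dashed line; summits inside a gene are drawn at 10 and DDX3Y, with no summit on its chromosome, is not drawn. The 14 members with a summit lie left of the line, in 6 of the role groups, which are too small to be told apart.

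The distance rule fell in a gap. DDX52, at 495 bp, was the member farthest from its summit among those counted, and the next, DHX33 on chromosome 17, was 1774 bp away from a summit with a score of 3.24 that lay 12 bp inside C1QBP. DDX21 (3891 bp), DDX19A (7946 bp), DDX56 (8533 bp), DHX16 (9374 bp) and DHX32 (13105 bp) followed. At the far end, 16 of 38 DDX genes (42.1%) and 8 of 16 DHX genes were more than 100 kb from any summit, against 61.0% of all protein-coding genes. The neighbours DDX60L and DDX60 on chromosome 4 were 15023637 and 15178150 bp away.

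Several of these summits lay at a second gene as well. Another protein-coding gene lay at the summit, within 1 kb of its outer end, for 6 of the 11 DDX genes (DDX5, DDX19B, DDX28, DDX42, DDX51 and DDX52) and for 0 of the 3 DHX genes. Of all 2765 coding genes with a summit, 869 (31.4%) had another coding gene's end at it in this way. Leaving out summits nearer to the outer end of another coding gene removed DDX5, DDX19B, DDX42, DDX51 and DDX52. DDX then had 6 of 38 (15.8%, 6.02 to 31.3) and DHX 3 of 16 (18.8%), against 11.4% of all protein-coding genes under the same rule. The DDX share was thus below the DHX share under this rule, and it was also lower when the list was limited to scores from its median upwards. Measured to annotated starts instead, DDX5 was retained and the counts were 7 of 35 DDX genes (20.0%) and 3 of 14 DHX genes (21.4%), against 11.5% of all.

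DDX genes often sit close to another coding gene whether or not they carry a summit. Another coding gene's outer end lay within 1 kb of an end of 20 of 38 DDX genes (52.6%) and 7 of 16 DHX genes (43.8%), against 28.5% of all protein-coding genes. Of those 20 DDX genes 8 had a summit, and of the 18 others 3 did. For DHX it was 1 of 7 and 2 of 9. Over all coding genes, 21.2% of those with such a neighbour had a summit and 10.8% of those without. The part of this arrangement in the DDX count was not tested.

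**Figure D3:**
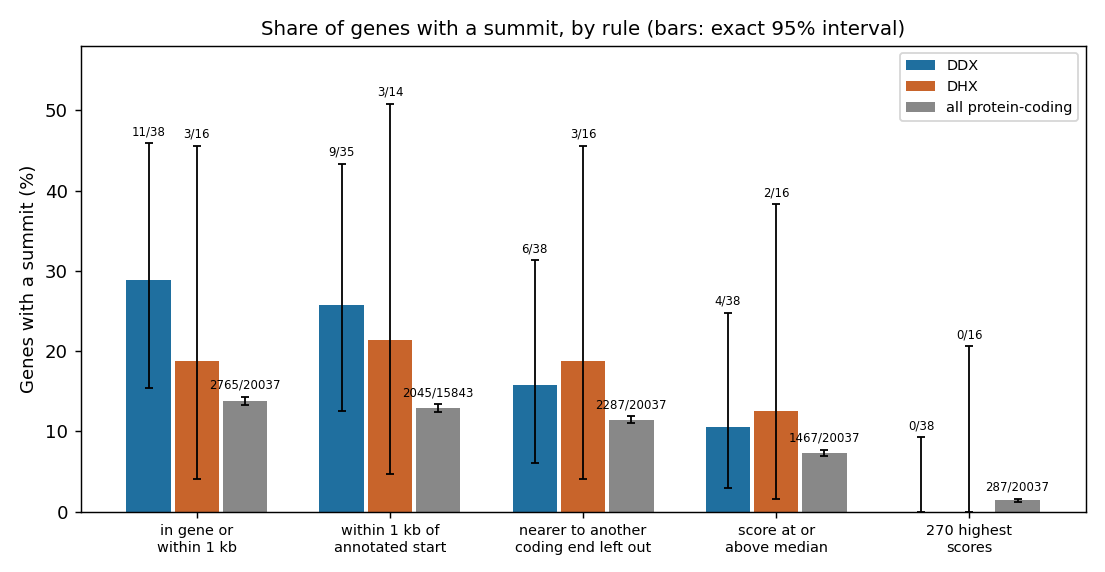
Share of DDX, DHX and all protein-coding genes with a summit under 5 rules, in percent, with exact 95% intervals as error bars and counts above them. The DDX bar is the tallest under the 2 leftmost rules and falls to 15.8%, below the DHX bar at 18.8%, once summits nearer to another coding gene's end are left out.

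Chromosome and gene length were then matched. DDX genes had a median length of 26.0 kb and DHX genes of 47.8 kb, against 24.1 kb for all protein-coding genes. From the share of other coding genes of the same chromosome and length class (3 classes) with a summit, 5.68 DDX and 2.83 DHX genes would carry one. The observed 11 and 3 were 1.94 and 1.06 times these values. Matching on chromosome and a close coding neighbour, which was added after seeing the data, gave 6.70 and 2.67. With summits left to the nearer gene, the 6 DDX genes were 1.27 times and the 3 DHX genes 1.29 times the values matched on chromosome and length (4.73 and 2.33).

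By chromosome, all 3 of the DDX genes on chromosome 17 (DDX5, DDX42 and DDX52) had a summit, as did 1 of the 4 DHX genes (DHX40, but not DHX8, DHX33 or DHX58), against 20.9% of that chromosome's coding genes. Each of those DDX summits lay at another coding gene as well. On chromosome 16 (23.9% of coding genes), DDX19B and DDX28 had a summit and DDX19A and DHX38 did not. On chromosome 12 (14.8%), DDX23 and DDX51 had one, while DDX11, DDX47, DDX54, DDX55 and DHX37 did not. None of the 13 members on chromosomes 2, 5, 6 and 19 had one, where the share of coding genes was 12%, 12.2%, 10.7% and 12.4%. Neither of the 2 members on chromosome 20 had one, although its share of 27.2% was the highest of any chromosome.

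The genes were also matched directly. There were 19 pairs of a DHX and a DDX gene on the same chromosome whose lengths differed by at most 2 times, from 12 DHX and 15 DDX genes. Both genes had a summit in 2 pairs (DHX40 with DDX42 and with DDX52), the DDX gene alone in 8, the DHX gene alone in 1 (DHX15 with DDX60) and neither in 8. Of the 8 with the DDX gene alone, 5 were on chromosome 17 and drew on DDX5, DDX42 and DDX52. The others were DDX59 with DHX9, DDX50 with DHX32 and DDX23 with DHX37. DDX5, DDX42 and DDX52 each lose their summit when summits nearer to another coding end are left out. The 2 pairs with both genes also draw on DDX42 and DDX52. The pairs were not recounted under that rule, so their split does not show that DDX genes carry summits more often after matching. Genes recur across pairs, so the pairs are not independent.

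The scores of member summits had a median of 3.35 (range 1.84 to 6.52), against 3.72 for all summits. By family the median was 3.00 for the 11 DDX summits, below that of the list, and 4.27 for the 3 DHX summits. The highest member scores, at DDX28, DDX50 and DDX5, ranked 282, 472 and 554 of 2697. No member was among the 270 highest-scoring summits, which marked 1.43% of coding genes. At or above the median score of the list, 4 DDX genes (DDX5, DDX28, DDX50 and DDX51) and 2 DHX genes (DHX30 and DHX40) were left, 10.5% and 12.5%, against 7.32% of all coding genes. DDX51 and DHX30 had the same score.

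**Figure D4:**
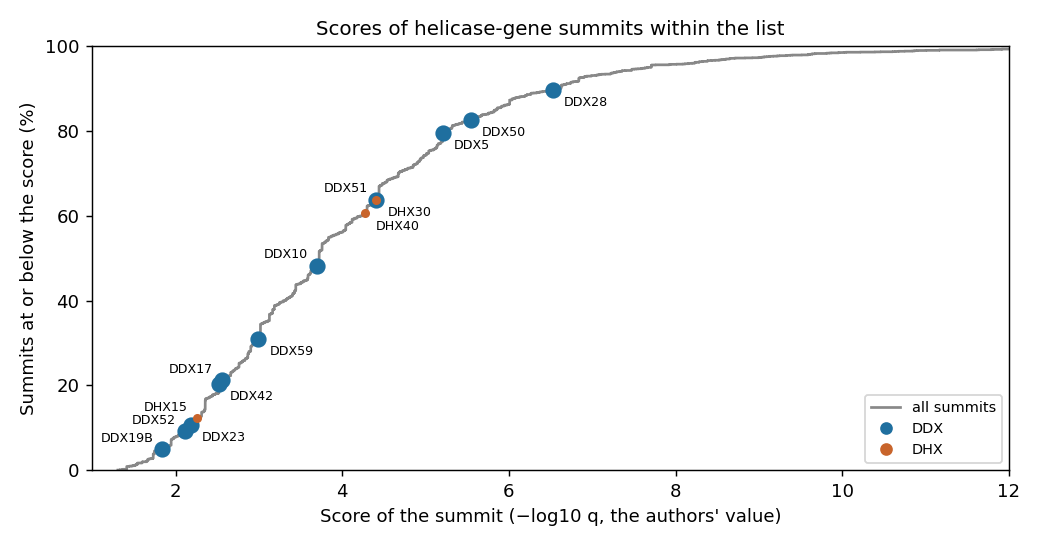
Cumulative share of the 2697 summits at or below each score (grey line; scores above 12 are not shown), with the 14 member summits marked on it. Members range from DDX19B at 1.84 to DDX28 at 6.52, and the point of DHX30 lies on that of DDX51.

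Promoter letters were compared over the 300 bases from 250 before to 50 after the outermost annotated start. The table had 49 of 54 members. These are windows of genes with or without a summit: the summit itself fell inside the window for DDX10, DDX17, DDX51 and DHX40, 4 of the 13. DDX18, DDX49, DDX52, DHX33 and DHX58 were not matched. The 13 members with a summit had a median GC content of 63.0% (range 55.0 to 78.0) and the 36 without 59.5% (33.3 to 75.0). Among all coding genes it was 68.0% with a summit and 61.7% without. Members with and without a summit overlapped over most of this range. The observed over expected CpG ratio had a median of 0.978 with a summit and 0.855 without, against 0.873 and 0.733 over all genes.

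Among the windows of the 13 members with a summit, the short CRE form TGACG was found in 10 (DDX5, DDX10, DDX17, DDX28, DDX42, DDX50, DDX51, DDX59, DHX30 and DHX40) and it was in 13 of the 36 of members without. It was in 29.4% of all coding-gene windows and in 35.4% of those of genes with a summit. The full CRE was in 3 of the 13 (DDX10, DDX28 and DDX51, as printed above) and 2 of the 36 (DDX19A and DHX36), against 2.56% of all windows and 3.63% of those of genes with a summit. For the other motifs, the share over all windows and then that over genes with a summit follow in brackets. The ETS letters CCGGAAG were in 4 of 13 and 16 of 36 (14.2% and 19.9%). The GC box was in 9 of 13 and 18 of 36 (58.3% and 75.4%), and the CCAAT box in 7 of 13 and 15 of 36 (36.4% and 35.8%). The E-box was in 2 of 13 and 6 of 36 (8.82% and 11.8%). The NRF1 motif was in 1 of 13 and 1 of 36 (1.77% and 3.32%), and the YY1 letters AAGATGGC in 1 of 13 and 2 of 36 (3.86% and 6.09%). The TATA box TATAAA was in 0 of 13 and 2 of 36 (9.75% and 4.32%), and the ZBTB33 motif in no member (0.669% and 0.82%). A match is a match of letters and not a binding site.

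RNA helicase genes with other symbols were read from a list, of which 22 genes, all matched, are reported. Of these, 4 had a summit (18.2%, 5.19 to 40.3), and the interval includes the 13.8% of all protein-coding genes. EIF4A1 and EIF4A2, which encode the DEAD-box translation initiation factor eIF4A, had summits 49 and 205 bp from an outer end, with scores of 2.91 and 6.90. EIF4A3, the exon junction complex member, had none. ZNFX1 scored 7.55 at 214 bp, above every DDX and DHX gene. IGHMBP2 scored 2.13 at 35 bp. Unlike for the members, the other genes near these 4 summits are not given here, so any of these summits may also lie at a second gene. The spliceosomal helicase gene SNRNP200, the exosome cofactor gene MTREX, UPF1, DICER1 and the RNA sensor genes RIGI and IFIH1 were among the 18 without a summit. Since the depth is unknown, the lack of a summit at a gene was not read as the absence of WSTF.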

How the data were processed

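ChIP-seq with an antibody against WSTF was done in SW620 cells. The submitters' processing notes name MACS2 2.2.7.1, Bowtie2 2.4.4, Trimmomatic 0.39 and the build hg38, and per the design text peaks were called against input DNA. The authors deposited 1 list of summits with a score, read here as −log10 of a q-value because the lowest value, 1.31, is just above −log10 of 0.05. The sources used here do not say whether replicates were pooled. Depth is unknown.

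Summit positions were compared with the RefSeq gene table (GRCh38.p14) and its promoter table with Python 3.11.15, pandas 2.3.3 and scipy 1.17.1. The distance functions were tested on simulated summits at 200 genes. Shares carry exact Clopper-Pearson 95% intervals. Expected counts sum, over members, the share of other coding genes of the same chromosome and length class with a summit. No tests were run. The members and lists were chosen with earlier results of these data known. Every member with a summit within 1 kb was named. Alternatives were other windows, score limits, assignment to the nearer gene, other strata and length ratios. The planned check of the proteins' motif letters was not run. Of the list of other RNA helicase genes, 22 entries are reported and 1 is not reported here.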

Additional observations from a re-analysis of the deposited data

How the results depend on the processing

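Of 34 alternative values, 21 stayed within 1.5 times the main count or, for the share of all genes, inside its interval. The DDX count of 11 became 4 at or above the median score, 0 among the 270 highest-scoring summits, 6 with summits nearer to another coding end left out and 7 with summits nearer to another coding start left out, an alternative chosen after seeing the data. The DHX count of 3 became 0 among the 270 highest-scoring summits, a setting with fewer summits. The share of all coding genes, 13.8%, was 15.6% within 5 kb, 11.6% at outer ends alone, 12.9% at annotated starts, 7.32% at or above the median score, 1.43% among the 270 highest, 11.4% with summits nearer to another coding end left out and 11.5% with those nearer to another coding start left out. The 19 matched pairs became 11 at a length ratio of at most 1.5. No paired analysis was possible because only 1 summit list was analysed, with no replicates. Without reads or coverage the depth behind each summit is unknown.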
